A study of Mus musculus with 2 samples.

Results

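Footprints outside called peaks are short stretches of DNA that the authors listed as protected from DNase I but that share no base with any called peak of accessible chromatin in the same library. The members were chosen by the positions of the footprints and of the peaks in the larger of the library's 2 peak lists, over the autosomes. In replicate 1, 63503 of 366852 autosomal footprints lay outside peaks, and in replicate 2, 32648 of 204985. The shares were 17.3% and 15.9% (16.6 ± 0.978, SD, n = 2). The footprint and peak lists themselves chose these footprints, so their number, width and distance to a peak are given as a description with no test.

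DNase-seq maps where the enzyme DNase I cuts chromatin, which happens mostly where nucleosomes are absent or displaced, as at active promoters and enhancers. A protein bound to such open DNA shields the bases under it, which leaves a short gap in the cuts called a footprint. Footprints are therefore usually sought within peaks, and a footprint beside a peak lies in sequence that was cut enough to be scored but was not included in the interval called as a peak.

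Thymus tissue was taken from 2 female mice aged 10 days of strain B6CASTF1/J, the first-generation hybrid of a C57BL/6 and a CAST/EiJ parent, and made into 1 DNase-seq library each. The thymus is the organ in which T cells develop from bone marrow precursors. The females have separate numbers in the labels but a common donor identifier, and the replicates are read here as 2 mice of 1 genetic background. There was 1 group and no control or treatment, so no comparison of conditions was possible, and with 2 paired values an exact two-sided test over samples cannot go below p = 0.5.

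Replicate 1 held more features of each kind, with 132737 peaks against 69798 and 375374 footprints against 210014 over all chromosomes. Read numbers are not given in the sources used here, so depth is known only through these list sizes. All 5 T lineage markers checked (Cd3e, Cd8a, Rag1, Tcf7 and Bcl11b) had a peak within 500 bp of a start in both replicates. None of the 3 thymic epithelial, 2 B lineage, 2 erythroid and 2 hepatocyte markers had one in either replicate, so the markers of the epithelial part of the organ were absent at their starts.

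The sequences below show what these footprints look like at their extremes and at genes of the T lineage. They are the plus strand of the reference genome (RefSeq, GRCm38.p6), 5′ to 3′, with the footprint of replicate 1 in capitals and 20 bp on either side in lower case. Each overlaps a footprint of replicate 2 that also lies outside peaks. The first 5 come from the 10 such footprints farthest from any peak of either replicate, and the sixth is among the 5 with the lowest FDR. The others are, for members of a T lineage gene list, the footprint nearest to the start of the gene. Footprints with an exon in the printed window are not shown.
Ckap5, chr2:91527358-91527411: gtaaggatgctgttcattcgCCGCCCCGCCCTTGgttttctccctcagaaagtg
Rfx2, chr17:56830555-56830601: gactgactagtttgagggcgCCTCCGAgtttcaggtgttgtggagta
Kat6b, chr14:21501411-21501460: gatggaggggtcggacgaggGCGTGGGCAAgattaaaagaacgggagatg
Mpv17l, chr16:13903636-13903702: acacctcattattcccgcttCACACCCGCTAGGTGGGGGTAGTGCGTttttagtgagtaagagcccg
Gsk3b, chr16:38088455-38088505: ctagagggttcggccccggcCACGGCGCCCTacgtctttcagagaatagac
Gdf9, chr11:53431115-53431178: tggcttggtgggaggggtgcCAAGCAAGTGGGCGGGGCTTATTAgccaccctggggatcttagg
Satb1, chr17:51832724-51832776: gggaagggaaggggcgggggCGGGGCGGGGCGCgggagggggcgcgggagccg
Notch3, chr17:32165540-32165586: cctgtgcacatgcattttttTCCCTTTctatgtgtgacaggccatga
Bcl11b, chr12:108004263-108004317: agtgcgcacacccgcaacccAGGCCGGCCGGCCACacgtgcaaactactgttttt
Ikzf1, chr11:11685851-11685901: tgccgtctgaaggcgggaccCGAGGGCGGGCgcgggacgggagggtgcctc
Runx1, chr16:92699084-92699130: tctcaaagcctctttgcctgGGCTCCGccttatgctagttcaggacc
Sox4, chr13:28953910-28953966: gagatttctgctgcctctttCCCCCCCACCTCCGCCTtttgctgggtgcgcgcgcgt

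The Ckap5, Rfx2, Kat6b and Mpv17l sequences lie in introns, between 361 and 547 bp downstream of the nearest start, and the Gdf9 sequence lies in an intron 124 bp downstream. The Gsk3b, Bcl11b and Sox4 sequences lie upstream of their genes and overlap no gene, at 521, 688 and 225 bp from the start. The Satb1, Ikzf1, Notch3 and Runx1 sequences overlap their genes but no exon. GGGCGG, the core bound by the SP and KLF zinc finger proteins, occurred on either strand in the printed bases at Ckap5, Gdf9, Satb1 and Ikzf1. CAGGTG, an E-box read by basic helix-loop-helix proteins, occurred at Rfx2, in the flank outside the footprint, and CACGTG, the E-box read by MYC, at Bcl11b. The loose NF-kB pattern matched at Rfx2, Gsk3b, Ikzf1 and Runx1 and the IRF pattern at Notch3, while none of the 23 searched patterns matched at Kat6b, Mpv17l or Sox4. Over all 31 bp tiles of the autosomes, GGGCGG occurred in 0.297%, CAGGTG in 1.77% and CACGTG in 0.272%. The printed stretches, of 47 to 67 bp, are longer than these tiles, so the shares are not a like background. Within 1 kb of a start, GGGCGG occurred in 12.4% and 14.9% of the 31 bp windows centred on footprints outside peaks. For CAGGTG these shares were 1.77% and 1.74%, and for CACGTG 0.571% and 0.645%. At Satb1, 80.6% and at Notch3, 77.4% of the central 31 bp were soft-masked as repeats or low-complexity sequence. A match to letters is a description of the sequence and does not show what was bound.

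The footprints outside peaks were narrow. Their median width was 9 bp in both replicates, against 10 bp for footprints inside peaks, and their mean width was 10.5 and 11.2 bp against 13.5 and 13.9 bp. Wide footprints were less frequent outside: 7.08% and 9.12% were 20 bp or wider, against 18.5% and 20.2% inside. Footprints under 10 bp made up 60.2% and 54.2% outside and 46.2% and 43.2% inside. The widths ran from 7 bp, the narrowest listed anywhere, to 64 bp in replicate 1 and 53 bp in replicate 2.

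Footprints across a peak edge counted as inside, and the part of this rule in the width difference was not tested. In replicate 1, 11738 footprints (3.20% of the autosomal ones) straddled a peak edge, and in replicate 2, 6924 did (3.38%), with a median width of 13 bp in both. Just inside the rule, 940 and 548 footprints shared exactly 1 base with a peak, with a median width of 9 and 10 bp. Just outside it, 983 and 531 footprints touched a peak without sharing a base, with a median width of 9 bp in both. Away from the edges the footprints stayed narrow: those over 150 bp from a peak had a median width of 8 bp in both replicates.

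Footprints outside peaks lay close to the peaks. The median distance to the nearest peak was 53 bp in replicate 1 and 44 bp in replicate 2 (48.5 ± 6.36, SD, n = 2). Within 10 bp lay 13.8% and 16.1%, and within 150 bp, about the length of DNA on a nucleosome, lay 84.1% and 87.2%. The longest distance was 870 bp and 717 bp, so no footprint of either replicate lay 1 kb or more from a peak, and 87 and 29 footprints lay over 500 bp away. In 37.6% and 35.2% of cases a peak lay within 500 bp on both sides, which places the footprint between neighbouring peaks.

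**Figure D1:**
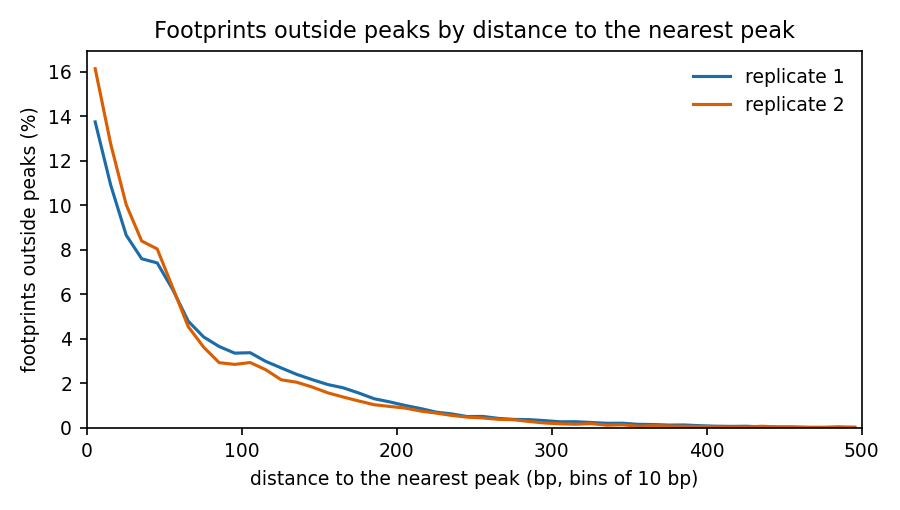
Share of the footprints outside peaks (y axis, percent) by distance to the nearest peak (x axis, bp, bins of 10 bp), 1 line per replicate. Both lines are highest in the first bin, at 13.8% and 16.1%, and fall to near 0 by 500 bp.

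Footprints outside peaks lay more often beside high peaks than footprints inside lay in them. Peak height is the signal value in the authors' peak list, taken here as the highest value within a peak region, which is a set of overlapping peaks joined. The median height of the nearest region was 4.05 in replicate 1 and 5.23 in replicate 2, against 1.42 and 1.49 for the regions that held footprints inside, and 0.625 and 0.834 over all regions. The highest 10% of regions were nearest to 56.0% and 55.5% of the footprints outside peaks and held 22.0% and 20.1% of those inside. Among the highest 10%, 81.7% and 86.8% had at least 1 footprint beside them, against 2.66% and 6.10% of the lowest 10%.

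The share of footprints that lay outside did not rise steadily with height. It was 12.4% and 11.2% in the lowest 10% of regions, 7.36% and 6.09% in the class just below the median height and 34.8% and 34.4% in the highest 10%. Peak regions did not widen with height among the higher ones: the median width was 220 bp in each of the 4 highest of 10 height classes in both replicates. In both replicates most peaks started on a coordinate divisible by 20, at 74.0% and 69.4%. Where a footprint flanked a region in the highest 10%, the stretch with an FDR listed around it was 1892 and 1318 bp long at the median. Peaks covered a median of 30.8% and 31.9% of it. For footprints inside such regions the values were similar, at 1693 and 1210 bp with 34.2% and 35.9% covered.

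**Figure D2:**
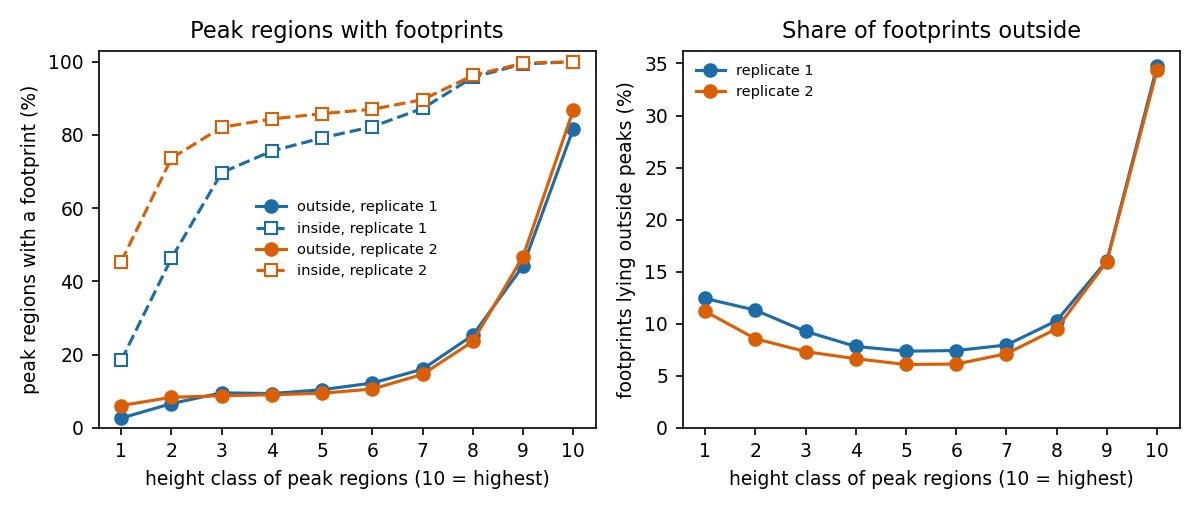
Left, share of peak regions (percent) with at least 1 footprint outside (filled circles) or inside (open squares) by class of peak height, 10 classes of equal size, where 10 is the highest. Right, share of each class's footprints that lie outside peaks (percent). Colours mark the replicates; the outside share reaches 34.8% and 34.4% in the highest class.

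The FDR of the cut rate, listed by the authors for stretches of the genome, was low at these footprints. The footprint list was derived from this FDR list, per the deposited notes, so a listed FDR is no independent check of the call. Every base was listed for 98.6% and 98.5% of the footprints outside peaks, much as for those inside, at 98.9% and 98.5%. No base was listed for 283 and 152 of them. The median of the highest FDR within a footprint was 7.38e-23 and 3.89e-19 outside, against 1.73e-14 and 2.47e-09 inside. Every base was at 0.001 or lower in 90.2% and 88.5% outside, against 86.1% and 77.9% inside.

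That order reversed at the highest peaks. In the highest 10% of peak regions the median of −log10 of the highest FDR was 38.9 and 30.4 outside, against 69.2 and 60.1 inside. At the remaining regions the replicates differed in direction, with 8.69 and 7.20 outside against 9.31 and 5.88 inside. Nearly all footprints outside peaks, 97.5% in replicate 1 and 97.4% in replicate 2, lay in an unbroken stretch of listed FDR that also held a peak. The stretch around a footprint had a median length of 1626 and 1124 bp outside, against 646 and 453 bp inside. At the highest 10% of peak regions the lengths were closer, at 1892 and 1318 bp outside against 1693 and 1210 bp inside. Sequence with a listed FDR but outside peaks covered 25.6 and 9.96 Mb and held 2.47 and 3.26 footprints per kb, against 10.7 and 12.7 per kb in listed sequence within peaks.

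**Figure D3:**
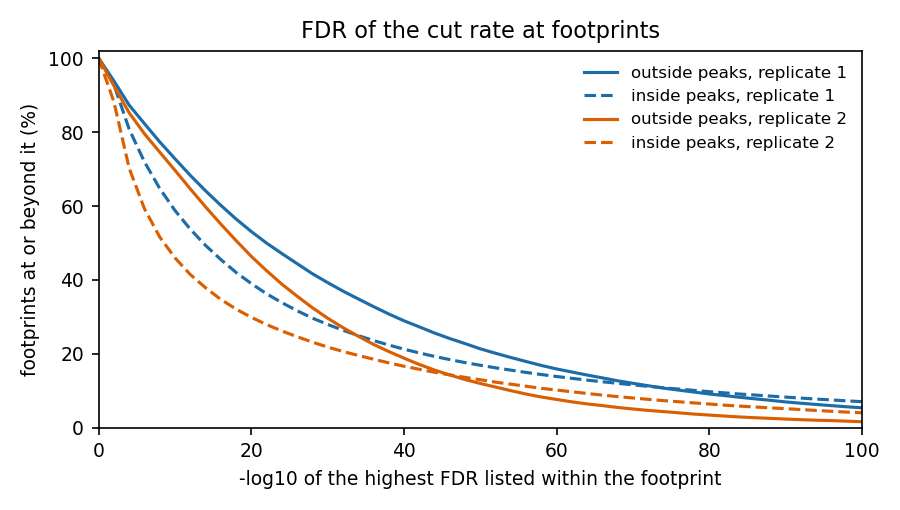
Share of footprints (y axis, percent) at or beyond a given −log10 of the highest FDR listed within them (x axis), for footprints outside (solid) and inside peaks (dashed), coloured by replicate. The solid lines lie above the dashed ones at low to middle values, with medians of 22.1 and 18.4 against 13.8 and 8.61, and fall below them at the far end.

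Most footprints outside peaks lay at promoters, taken as within 1 kb of the start of a protein-coding transcript. The promoter share was 60.4% in replicate 1 and 75.1% in replicate 2, against 32.0% and 47.0% of footprints inside peaks and 3.93% of autosomal bases. Introns held 16.8% and 9.38%, exons 2.11% and 1.91%, and intergenic sequence 20.7% and 13.6%. Among footprints in or beside the highest 10% of peak regions, the promoter share was 80.0% and 90.7% outside and 70.3% and 87.5% inside, so the gap was smaller there. The share rose with distance from the peak, from 49.3% and 63.1% within 10 bp to 73.4% and 90.2% at over 150 bp.

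Around the start itself the 2 kinds of footprint took up different places. A footprint that shares a base with a peak near the start counts as inside by rule. The part of this rule in the profile was not tested. Promoter footprints inside peaks were densest just upstream, with 17.3% and 19.0% in the 50 bp before the start. Those outside had a first maximum from 0 to 49 bp downstream, with 11.8% and 14.0%, and a second in the 50 bp bin that begins 200 bp upstream, with 6.11% and 6.38%. Between these lay a dip in the bin that begins 100 bp upstream, with 4.63% and 5.03%. From 50 to 99 bp downstream lay 10.9% and 11.6% of the promoter footprints outside and 5.36% and 5.47% of those inside. Downstream of the start lay 52.2% and 51.2% outside against 41.2% and 40.9% inside.

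**Figure D4:**
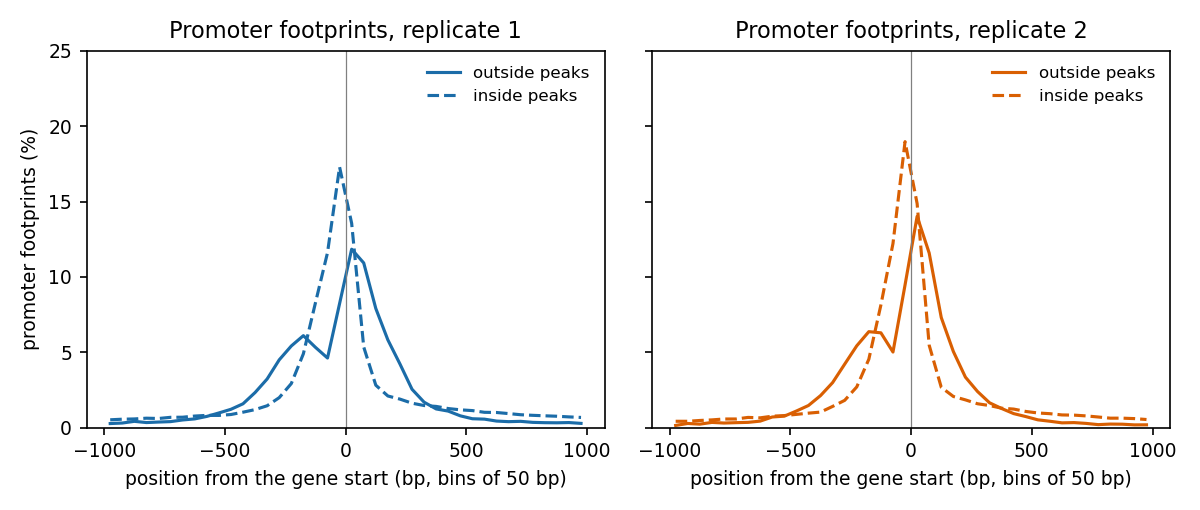
Promoter footprints (y axis, percent of those within 1 kb of a start) by position from the nearest protein-coding start (x axis, bp, bins of 50 bp, negative is upstream), outside (solid) and inside peaks (dashed), 1 panel per replicate. The dashed line peaks at 17.3% and 19.0% just upstream, and the solid line has a maximum on each side of it.

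The divergent promoter of Gdf9 and Uqcrq on chromosome 11 shows footprints on both sides of a narrow peak at a single place. It was chosen after its values were seen, as the one of the listed largest groups with the most footprints, 13 of 14 in replicate 2, that met one outside peaks in the other replicate. Gdf9 encodes a growth factor of the oocyte and Uqcrq a subunit of respiratory complex III. In both replicates the peak list held a single peak here, chr11:53431041-53431100, only 60 bp long, with a height of 15.0 in replicate 1 and 15.9 in replicate 2. Within the drawn region, replicate 1 had 17 footprints outside this peak and 1 across its edge, and replicate 2 had 14 and 1. They began 9 and 8 bp from the peak on its left side and reached 373 and 280 bp from it. The intronic footprint printed above lay 35 and 34 bp from the peak and was 24 and 26 bp wide. Its highest listed FDR in replicate 2 was 1.42e-192. The peak lay downstream of the Gdf9 start, and a footprint outside peaks spanned that start in both replicates. In this the promoter differed from the profile around starts given above.

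**Figure D5:**
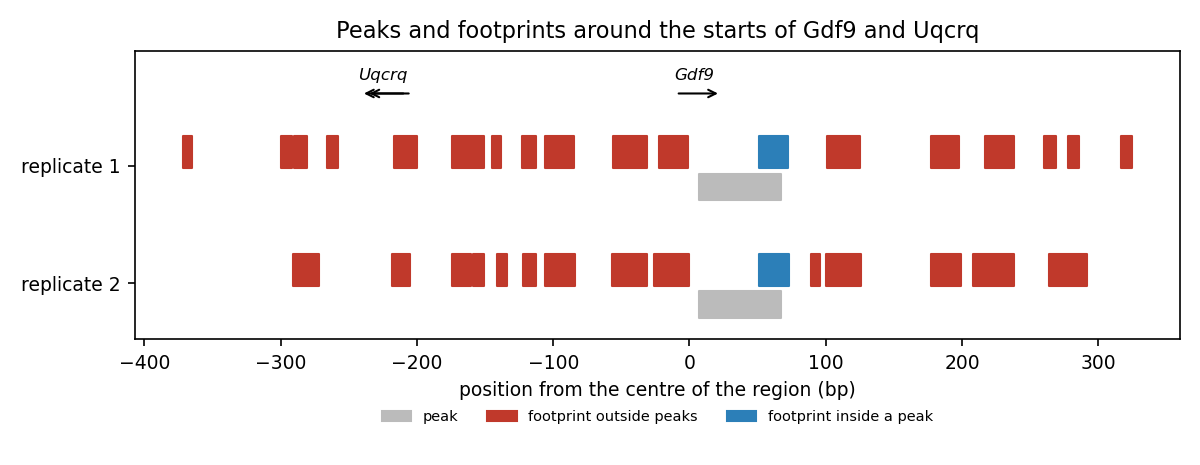
Peaks (grey), footprints outside peaks (red) and the footprint across the edge of the peak (blue) around the starts of Gdf9 and Uqcrq (arrows, in the direction of transcription), by position in bp from the centre of the region, 1 row per replicate. The single 60 bp peak is flanked by 17 and 14 footprints.

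A footprint of the other replicate overlapped 27.2% of the footprints outside peaks of replicate 1 and 55.7% of those of replicate 2. For footprints inside peaks the shares were 34.8% and 63.1%. Replicate 1 held more footprints, so the share counted from replicate 1 is limited by the shorter list. The gap between outside and inside was smaller among footprints of like width. Under 10 bp, 15.3% and 41.2% were overlapped outside, against 15.9% and 41.8% inside. At 20 bp or more, 79.6% and 95.1% were overlapped outside, against 77.8% and 97.3% inside. By place the gap was larger. Within 1 kb of a start, 36.4% and 57.7% were overlapped outside, against 54.6% and 66.6% inside. Elsewhere the shares were 13.3% and 49.6% outside against 25.5% and 59.9% inside. In the highest 10% of peak regions they were 38.7% and 63.9% outside against 73.8% and 85.2% inside. Footprints inside were wider in those highest regions (median 15 and 17 bp, against 9 and 10 bp outside). The part of width in these gaps was not tested.

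The place of a footprint outside peaks in the other replicate varied. It met a footprint there that also lay outside peaks in 17.1% (replicate 1) and 33.4% (replicate 2) of cases. It lay in a peak there with a footprint in 9.59% and 20.6%, and in a peak there without one in 11.5% and 12.7%. The FDR was listed there, with neither peak nor footprint, in 38.6% and 29.6%. No FDR was listed there for 22.7% of those of replicate 1 but for only 2.10% of those of replicate 2. In all, 13364 of the 63503 and 10848 of the 32648 shared a base with a peak of the other replicate.

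A set of 10702 footprints of replicate 1 lay outside the peaks of both replicates and overlapped a footprint of replicate 2 that did so too. They made up 16.9% of the footprints outside peaks of replicate 1, and their 10231 partners made up 31.3% of those of replicate 2. Both ends were identical in 429 of them. Of this shared set, 86.3% lay at promoters, and the median distance to any peak of either replicate was 36 bp. The farthest was the Ckap5 footprint printed above, 538 and 544 bp from the nearest peak of each replicate. Ckap5 encodes a microtubule polymerase. That footprint was 14 bp wide in replicate 1 and 8 bp wide in replicate 2, with a highest FDR of 4.70e-29 and 3.20e-10.

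All 10 of the farthest were classed as promoter footprints, and those ranked 2, 3 and 10 are given here. The Rfx2 footprint, in the gene of a transcription factor of ciliated cells, was 7 bp wide in both replicates and lay 520 and 540 bp from a peak, with a highest FDR of 4.52e-12 and 0.000193. The Kat6b footprint, in the gene of a histone acetyltransferase, was 10 and 7 bp wide and lay 491 and 518 bp away, with 1.08e-17 and 2.82e-24. The Gsk3b footprint, upstream of the gene of a serine/threonine kinase, was 11 and 20 bp wide and lay 416 and 396 bp away.

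In sequence, the 31 bp windows centred on footprints outside peaks were rich in G and C. Their median GC content was 58.1% and 64.5%, against 54.8% and 61.3% inside and 41.9% over the autosomes. A CpG was present in 68.1% and 80.8%, against 54.6% and 69.7%. At promoters alone the median GC content was the same outside and inside, at 64.5% in replicate 1 and 67.7% in replicate 2. Soft-masked repeats made up 12.2% and 9.55% of the windows outside, 13.7% and 10.1% of those inside and 33.5% of the autosomes.

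Of 23 consensus sequences searched on both strands, 18 were less frequent outside than inside in both replicates, 3 were more frequent in both, and 2 differed in direction. This count is over all windows and takes no account of the higher promoter share outside. Some of the 18 did not keep their direction at each place. Over 1 kb from a start, the IRF pattern was more frequent outside, at 0.528% and 0.307% against 0.463% and 0.256% inside. The Ikaros pattern was too, at 2.97% and 2.815% against 2.76% and 2.64%. Within promoters both were lower outside. The lowest ratio was that of CTCF, the zinc finger protein of chromatin loops and boundaries. Its consensus occurred in 0.479% and 0.637% of windows outside, against 2.48% and 3.002% inside. It occurred in 2.13% and 2.63% of the windows of all autosomal footprints and in 0.0501% of all 31 bp tiles of the autosomes. The CTCF share was also lower outside within promoters, at 0.548% and 0.616% against 1.41% and 1.46%. TGTGGTT, read by the RUNX proteins that are needed for T cell development, occurred in 0.505% and 0.420% outside and 1.29% and 0.937% inside, and in 0.624% of tiles. The RUNX gap was smaller within promoters, at 0.250% and 0.245% outside against 0.443% and 0.332% inside. Fewer windows outside than inside also held the ETS sequences CAGGAAG (1.21% and 1.08% against 2.38% and 1.85%) and CCGGAAG (0.877% and 1.15% against 1.06% and 1.62%), which share the letters GGAAG and occurred in 0.850% and 0.0759% of tiles.

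The sequence GGGCGG of SP and KLF proteins went the other way, in 8.51% and 12.3% of windows outside against 6.44% and 10.3% inside and 0.297% of tiles. Its direction depended on the place: within promoters it occurred in 12.4% and 14.9% outside against 15.2% and 17.5% inside, and at the highest 10% of peak regions in 11.1% and 14.5% against 14.5% and 21.2%. The NF-kB pattern, a loose one with 5 free positions between runs of G and C, occurred in 8.07% and 10.5% outside and 6.99% and 10.0% inside and in 2.07% of tiles, and it too was lower outside within promoters. The E2F sequence GGCGGGAA, whose first letters overlap those of GGGCGG, occurred in 0.302% and 0.380% outside and 0.178% and 0.306% inside, and in 0.0188% of tiles. At the highest 10% of peak regions it was lower outside, at 0.408% and 0.552% against 0.435% and 0.639%, and within promoters the replicates differed in direction. The liver pattern HNF4A (CAAAGTCCA) and the muscle pattern MEF2, taken as controls, were the 2 that differed in direction, and each was found in at most 0.0331% of windows.

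By nearest start within 100 kb, genes of the T lineage were well supplied with footprints outside peaks. All 39 listed genes had one in replicate 1 and 37 had one in replicate 2, with a median of 16 and 6 per gene. Over 20780 autosomal protein-coding genes, 56.7% and 44.6% had one, with a median of 1 and 0. These genes also had many footprints inside peaks, with a median of 91 and 37 per gene against 8 and 5 over all genes. The share outside was 17.6% for the list and 17.8% for all genes in replicate 1, and lower for the list in replicate 2, at 12.7% against 16.3%. Of the list, 25 genes (64.1%) had at least 1 footprint of the shared set, against 25.5% of all genes and all 9 autosomal housekeeping genes. Counted by footprint, the order was the other way. In replicate 1, 44 of the 778 footprints outside peaks of the list were in the shared set, against 10607 of 61032 for all genes.

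Among the transcription factors, Satb1, an organiser of thymocyte chromatin, had 59 footprints outside peaks in replicate 1 and 13 in replicate 2. These were 20.3% and 13.5% of its footprints. Ets1 had 58 and 14 (18.4% and 13.2%), and Tcf7, the factor that opens T lineage chromatin, had 49 and 30 (20.7% and 17.9%). Foxp1 had 45 and 11 (14.1% and 8.33%), and Runx1 had 43 and 8 (19.7% and 9.41%). Replicate 1 had more footprints outside peaks at each of these genes. Among the surface molecules, the adhesion receptor Cd2 had 46 and 10 (21.2% and 10.9%), and the coreceptor Cd8a had 38 and 5 (24.2% and 9.43%). Over all genes the share outside was 17.8% and 16.3%, so high counts went with many footprints of both kinds. The kinase Lck had more in replicate 2, with 5 and 8 (11.6% and 17.4%). The 2 genes with none in replicate 2 were Rag1, a subunit of the recombinase that joins T cell receptor gene segments, with 6 in replicate 1, and the cytokine receptor Il7r, with 8. Rag1 had no footprint inside peaks in replicate 2 either, against 47 in replicate 1, while Il7r had 29 and 8 inside.

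At single T lineage starts the values differed in a similar way. The Satb1 footprint printed above lay 24 and 20 bp from the peak, with a highest FDR of 7.43e-19 in replicate 1 and 1.85e-15 in replicate 2. The Sox4 footprint had the same ends in both replicates, 17 bp wide, and lay 30 and 50 bp from the peak, with 1.24e-117 and 1.36e-31. The Ikzf1 footprint, in the gene of the lymphoid factor Ikaros, was 11 and 9 bp wide and lay 140 and 156 bp away, with 6.07e-20 and 0.000160. The highest FDR was lower in replicate 1 at each of these 3.

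The other lists gave a range. All 9 autosomal housekeeping genes had a footprint outside peaks in both replicates, with a median of 4 in each. Of 10 hepatocyte genes 2 had one in replicate 1 and none in replicate 2. Of 10 muscle genes 4 and 3 did, and of 9 autosomal neuronal genes 2 and none did. The genes with the most footprints in the shared set were not of the T lineage list: Gsk3b, Kat6b, Msl2, Dop1b, Ralgps1 and the cohesin subunit gene Stag1 had 11 each, and Ptma, Hnrnpa3, Sertad1 and Jun had 10 each.

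Joined across gaps of up to 200 bp, footprints outside peaks formed 32484 groups in replicate 1 and 17961 in replicate 2, of which 55.9% and 58.1% were single footprints. The largest groups, of 20 each, lay in replicate 1 at the starts of Zfp518a and of Hnrnpa3, an RNA-binding protein gene, followed by Ggnbp2, Ssbp3 and Plekha7 with 18 each. In replicate 2 they were Arid4a with 16, Clptm1 and the hexokinase gene Hk1 with 15 each, and Uqcrq and Mex3b with 14 each. At Plekha7, none of the 18 was in the shared set. Over autosomes the share of footprints outside peaks ran from 16.0% to 19.1% in replicate 1 and from 14.3% to 17.7% in replicate 2, so no autosome stood far from the others.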

How the data were processed

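DNase-seq lists of 2 thymus libraries on mm10 (GRCm38) were used as deposited. The authors deposited, per library, 2 narrowPeak lists whose signal value is the peak height, a footprint list with a constant level of 0.01, read here as an FDR threshold, and a list of FDR values (a q-value per stretch of bases) up to 0.05. The footprint list was derived from the FDR list, per the notes deposited with each sample. The highest FDR listed within a footprint was not always 0.01 or lower. It was so for 93.8% and 92.5% of footprints outside peaks and 92.8% and 88.1% of those inside, so the level is no cut on that value. For the aligner, the callers, read numbers and any correction for the sequence preference of DNase I, details are not given in the sources used here. Reads of the CAST/EiJ chromosomes may map less often, which was not tested.

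A footprint outside peaks shared no base with a peak of its own replicate in the larger peak list. Distance is counted to the nearest peak base, so that a touching footprint is at 1 bp. Genes were taken from GENCODE M21 and sequence from GRCm38.p6. Coordinates are 1-based. The analysis used Python 3.11.15 with numpy, pandas and numba, and the interval code was tested on simulated data. Peak regions were ranked by height within a replicate.

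Values are given per replicate. Footprints share libraries and are not replicates, so no test was made. The members, gene lists and consensus sequences were chosen with earlier results of these data known. Footprints were named by rules: those shared and farthest from peaks, those with the lowest FDR, the largest groups, the genes with the most shared footprints, and the T lineage members with the most. Alternatives were other peak lists, definitions of outside, width and FDR limits, promoter windows and overlaps, and leaving out each replicate.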

Additional observations from a re-analysis of the deposited data

How the results depend on the processing

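No paired analysis was possible because there was 1 group only, so no 2 groups share replicate numbers. With both replicates averaged, the stricter peak list gave 84977 footprints outside peaks, or 30.4%, a median width of 8.5 bp, a median distance of 142 bp, 95.7% with every base listed at an FDR and 45.9% in promoters. Requiring no peak within 150 bp left 7146 footprints, or 2.40%, with 8 bp, 202.5 bp, 99.7% listed and 81.8% in promoters. Footprints of 10 bp or more gave 20123, or 13.3%, a median width of 13 bp and 99.1% listed. With equal numbers of peaks, which changes replicate 1 only, the number was 80522, the share 25.5% and the median distance 263.5 bp. Taking the midpoint of the footprint gave 18.1% and 42 bp. At least 1 listed base was found in 99.5%, and an FDR of at most 0.001 at every base in 89.4%.

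Without either replicate in turn, the number ran from 32648 to 63503, the share from 15.9% to 17.3%, the distance from 44 to 53 bp, the listed share from 98.5% to 98.6%, the promoter share from 60.4% to 75.1% and the overlap with the other replicate from 27.2% to 55.7%, with a median width of 9 bp in each. The other settings moved these 7 values by no more than the spread between replicates. For the overlap share that spread was wide (SD 20.1), as 17304 of 63503 and 18178 of 32648 were overlapped, so staying within it says little. Its mean of 41.5% became 59.1% for footprints of 10 bp or more. It became 27.8% where at least 50% of both footprints had to be shared, and 25.5% with only partners outside peaks. Only 6 differences between outside and inside were followed over comparisons added after the data were seen, and they reversed 3 times. The share with GGGCGG went from 2.05 to −2.69 percentage points within promoters and to −5.03 at the highest 10% of peak regions. The median of −log10 of the highest FDR went from 9.09 to −30.0 at the highest 10%. Other consensus sequences were not in this count. Several of them, among them the NF-kB, E2F, IRF and Ikaros ones, also changed direction with place, as given above. The cause was not tested. The number of reads behind the lists is unknown, so a footprint missing from 1 replicate cannot be read as absent.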
